A study of Homo sapiens with 6 samples.

Results

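The genes described here encode albumin, alpha-fetoprotein and the major carrier proteins that the liver releases into plasma. They are the rows of the deposited gene table named ALB, AFP, AFM, GC, TTR, TF, RBP4, SERPINA1, AHSG or HP, and each of the 10 names matched a single row among the 57773 rows. Their Ensembl identifiers in the table are ENSG00000163631 (ALB), ENSG00000081051 (AFP), ENSG00000079557 (AFM), ENSG00000145321 (GC), ENSG00000118271 (TTR), ENSG00000091513 (TF), ENSG00000138207 (RBP4), ENSG00000197249 (SERPINA1), ENSG00000145192 (AHSG) and ENSG00000257017 (HP). RNA came from 6 cultures of HepG2, an established line from a human liver tumor, kept below passage 20 according to the labels. Of these, 3 cultures received human recombinant TGFβ1 at 5 ng/mL and 3 received its vehicle, all for 3 h. According to the study's methods the cells were in medium without serum during treatment, and the ligand had been dissolved in dilute acid with bovine serum albumin. The comparison asks whether TGFβ changed the RNA of these secreted proteins within this time. No genotype differed between the groups, and the results rest on a single cell line.

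Albumin carries fatty acids, bilirubin and many drugs and is the most abundant protein of plasma. ALB, AFP, AFM and GC belong to the same gene family. AFP is made by the fetal liver and again by many liver tumors, afamin (AFM) binds vitamin E, and GC encodes the vitamin D-binding protein. Transthyretin (TTR) carries thyroxine and holds retinol-binding protein (RBP4) in the circulation, transferrin (TF) carries iron, and haptoglobin (HP) captures free hemoglobin. SERPINA1 encodes alpha-1-antitrypsin, an inhibitor of neutrophil elastase, and AHSG encodes fetuin-A, which keeps calcium phosphate from precipitating.

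Reads counted on genes ranged from 60815385 to 100099136 per culture. All 10 fixed hepatocyte markers were detected, with a summed level between 32550 and 37240 CPM (read counts scaled to library size, normalized with edgeR's TMM method). These markers include ALB, SERPINA1 and TTR, which are also among the genes described here, and ALB alone had 13842 to 17229 CPM. Of 18 measured markers of fibroblasts, endothelial cells and blood cells, 6 had enough reads to be tested. KDR, CD3E, MS4A1 and HBB had 0 reads in all cultures, which allows at most 3 reads over the series, and PTPRC had 1 read. The summed level of these markers was 89.4 to 98.6 CPM with vehicle and 106.5 to 109.9 CPM with TGFβ, and its part in the results was not tested. The treatment could be seen in SMAD7, SKIL and PMEPA1, all of which rose at an adjusted P (FDR, Benjamini-Hochberg) under 0.05.

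The levels of the 10 genes spanned a wide range. The deposited RPKM scale divides by the length that the deposited table calls coding. On it ALB had a level of 3926 ± 215 with vehicle and 3705 ± 375 with TGFβ (SD, n = 3 each). ALB ranked between position 7 and 8 of all 57773 rows in every culture. SERPINA1 followed at 808 ± 78.8 RPKM with vehicle, then AHSG at 764 ± 125, AFP at 626 ± 95.1, TF at 355 ± 26.4 and RBP4 at 228 ± 18.6. TTR was far below its partner RBP4, at 21.4 ± 4.36 RPKM, and HP was at 11.6 ± 1.95. The RPKM of AFM with vehicle was 0.388 ± 0.0151 and that of GC was 0.0330 ± 0.00172, so that 8 of the genes were high or moderate and both of these were close to silent.

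Neighbors in this order were not all separable. The RPKM of SERPINA1 exceeded that of AHSG in 4 of 6 cultures, and AHSG exceeded AFP in 5 of 6. Every other gene was above the next in 6 of 6 cultures. The length of a gene is the same in all cultures, so these counts cannot test its part in the order. The order rests on the length that the deposited table calls coding, which was 2070 bases for TTR and 8565 bases for TF. In CPM, which is not divided by length, part of the order was reversed. With vehicle the mean CPM was 3679 for TF, 2472 for AFP and 2178 for AHSG, and 76.3 for HP against 53.9 for TTR. ALB, SERPINA1, RBP4, AFM and GC kept their places.

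**Figure D1:**
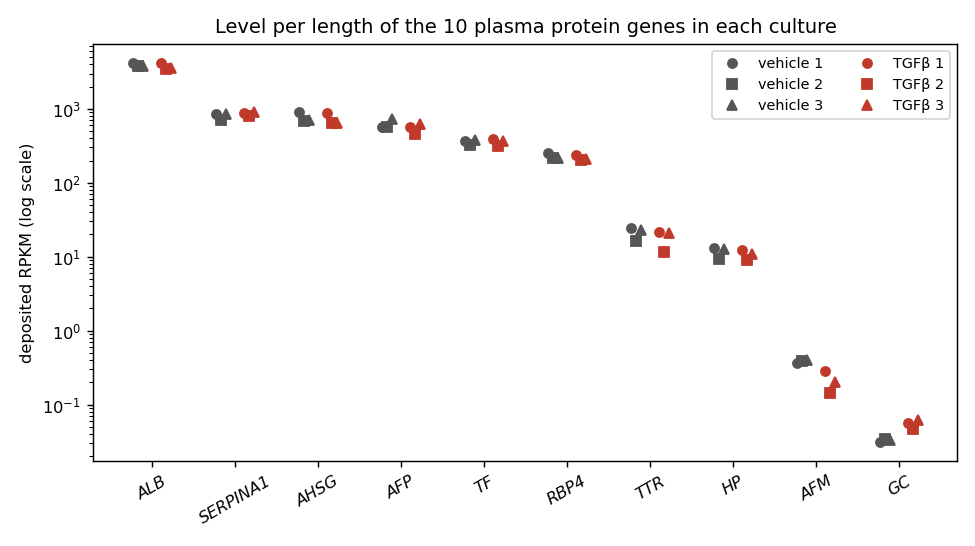
Deposited RPKM of each gene (log scale) in every culture, vehicle in gray and TGFβ in red, with the symbol giving the culture number. ALB lies highest in all cultures, AFM and GC lie lowest, and only AFM and GC show no overlap between the groups.

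ALB, AFP and AFM lie next to each other on chromosome 4. In hg19 the deposited table places ALB at chr4:74262831-74287129, AFP at chr4:74296855-74321891 and AFM at chr4:74347400-74369691. The gap between ALB and AFP is 9725 bp and that between AFP and AFM is 25508 bp, with 0 other rows of the table in either gap. GC lies 1.593 Mb away at chr4:72607410-72669758. Despite this closeness the mean RPKM of ALB with vehicle was 6.27 times that of AFP and 10116 times that of AFM.

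The bases just before the start sites of the adjacent genes are shown because these genes differ in level while sharing a family and a locus. Each run holds the 150 bases that end before the RefSeq start, on the plus strand. They were taken from RefSeq promoters on GRCh38.p14 and found at a single place each on chromosome 4 of GRCh37, the build of the deposited table: chr4:74269854-74270003 for ALB, chr4:74301788-74301937 for AFP and chr4:74347312-74347461 for AFM. The RefSeq starts differ from the starts of the table's rows. The runs of ALB and AFP lie inside the rows of these genes, and that of AFM spans the start of its row. Capitals mark GTTAATNAT (the opening letters of the HNF1 site), CCAAT and TATAAA, searched on both strands.
ALB: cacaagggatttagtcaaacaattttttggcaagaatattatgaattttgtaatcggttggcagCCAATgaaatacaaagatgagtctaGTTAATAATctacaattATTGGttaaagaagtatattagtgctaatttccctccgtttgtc
AFP: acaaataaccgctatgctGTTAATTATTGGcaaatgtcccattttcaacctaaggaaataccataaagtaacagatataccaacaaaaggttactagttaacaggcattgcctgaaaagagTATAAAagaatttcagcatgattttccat
AFM: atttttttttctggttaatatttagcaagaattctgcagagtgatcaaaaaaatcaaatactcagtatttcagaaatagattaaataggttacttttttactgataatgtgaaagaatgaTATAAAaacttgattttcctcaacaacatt

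HNF1 factors are known activators of the albumin promoter. The letters GTTAATNAT begin 61 bases before the ALB start and 132 bases before the AFP start, and they were found in 0.792% of 35116 RefSeq promoter windows, each running from 250 bases before to 50 bases after the start. In AFP they overlap a CCAAT box on the other strand. These exact letters are not in the AFM window, and the search cannot find HNF1 sites with other letters. TATAAA begins 29 bases before the AFP start and 30 bases before the AFM start, and it was found in 11.5% of windows. Of the 10 genes, 7 had RefSeq windows, 11 in all, and GC, TTR and HP did not match. The SMAD core CAGAC, found in 45.3% of windows, is in 4 of the 11 windows, at TF, RBP4, SERPINA1 and AHSG, and is not in those of ALB, AFP or AFM. The AP-1 letters TGANTCA, found in 7.71% of windows, are in 1 window of RBP4, and CCAAT, found in 34.6%, is in 4 windows.

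Without regard to culture number, no carrier differed between the groups at an FDR under 0.05, whereas with the number as a block AFM and TTR were lower (FDR 0.0386 and 0.0495). In the edgeR quasi-likelihood test over 22747 genes without the block, 0 of the 10 genes were higher and 0 were lower at an FDR under 0.05, where 3.11% of all tested genes were higher and 1.01% were lower. At an unadjusted P under 0.05, 0 were higher and 1, AFM, was lower, beside 8.69% and 4.97% of all tested genes. DESeq2 and limma-voom gave the same counts for the carriers. Between cultures of the same number, 6 carriers (ALB, AFP, AFM, TTR, AHSG and HP) were lower with TGFβ in 3 of 3 numbers and 2 (GC and SERPINA1) were higher in 3 of 3, beside 20.9% and 23.3% of all tested genes. All 10 genes passed the filter on low counts. Their median log2 fold change (log2FC, TGFβ over vehicle) was -0.04, beside -0.01 for all tested genes, with 3 positive and 7 negative values. In bulk RNA, fewer cells making a transcript and less transcript per cell cannot be told apart.

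ALB had 17229, 14950 and 15894 CPM in vehicle cultures 1, 2 and 3, and 17138, 13842 and 15600 CPM in TGFβ cultures 1, 2 and 3. The groups overlapped, and culture 2 was the lowest in both. With a log2FC of -0.05 (standard error, SE, 0.10; FDR 0.912), the 95% interval ran from -0.27 to 0.18, or from 0.827-fold to 1.14-fold.

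AFP had 2286, 2188 and 2941 CPM with vehicle and 2282, 1796 and 2648 CPM with TGFβ. Vehicle culture 3 was the highest and TGFβ culture 2 the lowest, and the groups overlapped. The log2FC was -0.14 (SE 0.15, FDR 0.8, 95% interval -0.48 to 0.20). The ratio of AFP to ALB reads within each culture, which needs no library scaling, was 0.133, 0.146 and 0.185 with vehicle and 0.133, 0.130 and 0.17 with TGFβ. Its log2 value was -2.71 ± 0.25 with vehicle and -2.80 ± 0.21 with TGFβ (SD, n = 3 each), a difference that did not exceed the spread (two-sided exact permutation test, P = 0.6, where the smallest possible value is 0.1). Sign flips within culture numbers, also an exact two-sided test, gave P = 0.5, where the smallest possible value is 0.25.

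AFM had the most negative log2FC of the 10. Its reads numbered 89, 85 and 67 with vehicle and 75, 31 and 42 with TGFβ. In CPM these were 1.01, 1.03 and 1.09 with vehicle and 0.774, 0.385 and 0.576 with TGFβ. Every TGFβ culture was below every vehicle culture, and the vehicle cultures lay close together while the TGFβ cultures differed from each other. Such a separation downward was seen in 8.23% of all tested genes. The log2FC was -0.84 (SE 0.27, FDR 0.155, 95% interval -1.44 to -0.23). From the summed reads, 241 with vehicle and 148 with TGFβ, the scaled ratio was 0.571 (exact 95% interval 0.462 to 0.704, for counting error only).

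GC, close to silent in these cells, had 8, 8 and 6 reads with vehicle and 16, 11 and 14 reads with TGFβ. In CPM these were 0.0906, 0.0965 and 0.0974 with vehicle and 0.165, 0.137 and 0.192 with TGFβ, so the groups did not overlap and TGFβ cultures were higher, as in 10.4% of all tested genes. The log2FC of 0.78 (SE 0.36, FDR 0.396) had a 95% interval from -0.03 to 1.6. The summed reads, 22 and 41, gave a scaled ratio of 1.73 (exact 95% interval 1.01 to 3.06, again for counting error only). At this depth a change of GC was not settled by the test.

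The retinol carrier and its partner, the thyroxine carrier, both overlapped between the groups. RBP4 (chr10:95351444-95361501) had 442, 368 and 389 CPM with vehicle and 430, 353 and 395 CPM with TGFβ. The log2FC of RBP4 was -0.03 (SE 0.10, FDR 0.950, 95% interval -0.24 to 0.19). TTR (chr18:29171689-29178974) had 62.5, 40.2 and 59.0 CPM with vehicle and 55.0, 28.6 and 55.2 CPM with TGFβ. Culture 2 was well below the others in both groups, so that the spread within a group exceeded the difference between groups. The log2FC of TTR was -0.22 (SE 0.24, FDR 0.804, 95% interval -0.75 to 0.32).

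The iron and hemoglobin carriers overlapped between the groups as well. TF had 3844, 3274 and 3920 CPM with vehicle and 4072, 3244 and 4081 CPM with TGFβ, a log2FC of 0.05 (SE 0.11, FDR 0.920, 95% interval -0.20 to 0.30). HP had 85.9, 59.8 and 83.1 CPM with vehicle and 82.2, 58.8 and 75.3 CPM with TGFβ, a log2FC of -0.08 (SE 0.15, FDR 0.895, 95% interval -0.42 to 0.26). For both genes the lowest culture of each group was number 2.

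Other genes overlap TF, HP, RBP4 and GC in the table, so reads of these carriers are less certain than those of the rest. At RBP4 the overlapping FFAR4 had 7 to 15 reads per culture, and at GC RNA5SP163 had 0 or 1. The genes that overlap TF and HP had more reads. They include TXNL4B, which spans HP, and RP11-404G16.2, which lies within TF. HPR, a close copy of HP, is listed at chr16:72088522-72111145, over nearly all of HP (chr16:72088491-72094954), and had a log2FC of -0.16 (SE 0.19, FDR 0.824). With the reads of HP and HPR added together the value was -0.10 (FDR 0.877). The pseudogene TFP1 at chr3:133380842-133473420 overlaps the start of TF (chr3:133464800-133497850) and had a log2FC of 0.14 (SE 0.12, FDR 0.739). How the authors assigned reads on shared bases is not given in the sources used here.

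SERPINA1 and AHSG complete the abundant genes. SERPINA1 (chr14:94843084-94857030) had 5110, 4137 and 5141 CPM with vehicle and 5245, 4746 and 5658 CPM with TGFβ. It was higher in the TGFβ culture of all 3 numbers, but vehicle cultures 1 and 3 were above TGFβ culture 2. The log2FC of SERPINA1 was 0.12 (SE 0.11, FDR 0.746, 95% interval -0.12 to 0.36), and it was 0.0202 without vehicle culture 2. AHSG (chr3:186330712-186339107) had 2619, 1908 and 2008 CPM with vehicle and 2583, 1833 and 1955 CPM with TGFβ. Culture 1 stood above the others in both groups, and the log2FC was -0.04 (SE 0.15, FDR 0.955, 95% interval -0.38 to 0.30).

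**Figure D2:**
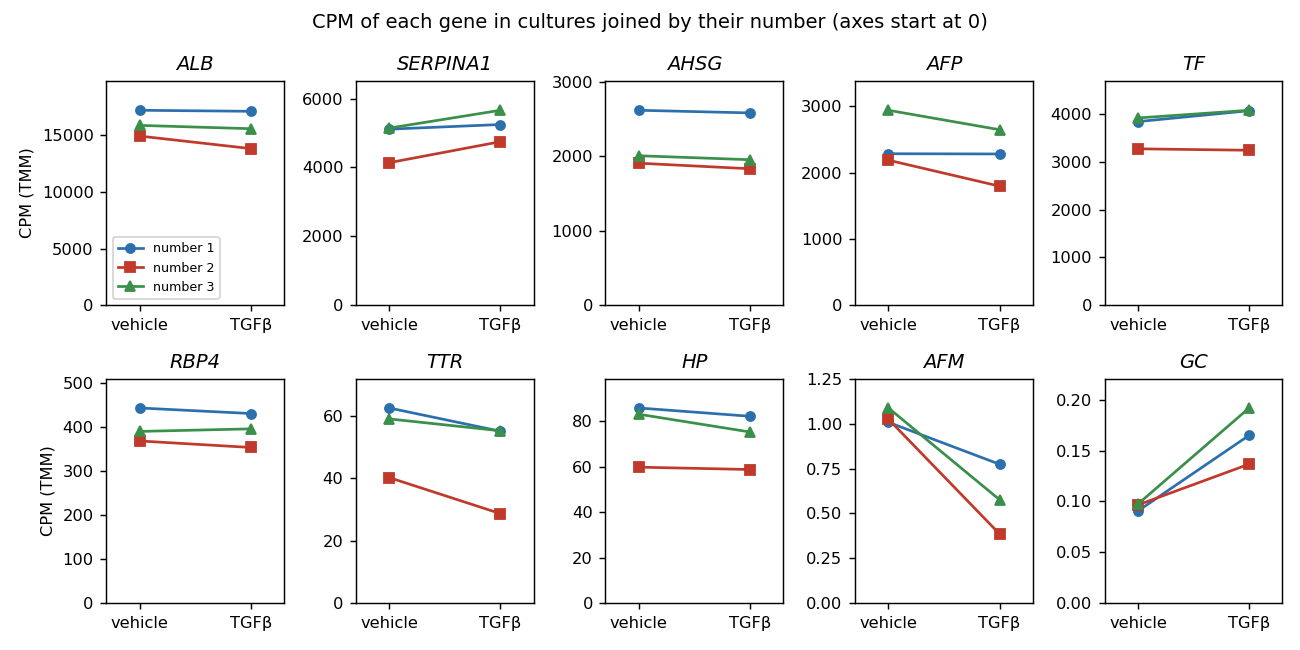
CPM of each gene in vehicle and TGFβ cultures, with a line joining the cultures of the same number. The axes start at 0. The lines of ALB, AHSG, TF, RBP4 and HP run nearly level while their heights differ by number, and those of AFM all slope down and those of GC all slope up.

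The heights of these lines followed the culture number. Culture 2 was the lowest vehicle culture for 8 of the 10 genes and the lowest TGFβ culture for 10 of 10, and it was lowest in both groups for 8, where this held for 15.4% of all tested genes. Cultures with the same number deviated together from their group means across all tested genes, and cultures 1 and 2 shared a sequencing lane with their partners according to the labels. A fit with the number as a block therefore removed much of the spread. The median standard error of the 10 genes was 0.151 without the block and 0.0508 with it, and over all tested genes it was 0.154 and 0.112.

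With the replicate block, AFM and TTR fell at an FDR under 0.05, so 2 of the 10 genes were lower and 0 were higher. Of all tested genes, 3.75% were lower and 8.08% were higher in this fit. AFM had a log2FC of -0.86 (SE 0.24, FDR 0.0386) and was lower in 3 of 3 numbers. TTR had a log2FC of -0.25 (SE 0.07, FDR 0.0495, 95% interval -0.42 to -0.09), equal to 0.839-fold, and was also lower in 3 of 3 numbers. Both calls were lost without number 2 in both groups, when the block gave AFM a log2FC of -0.62 (FDR 0.358) and TTR one of -0.13 (FDR 0.488). The TTR call was also lost without number 1, with a log2FC of -0.30 (FDR 0.0812).

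ALB, TF, RBP4, AHSG, HP, AFP and SERPINA1 were measured more narrowly with the block and did not pass. ALB had a log2FC of -0.05 (95% interval -0.15 to 0.06), equal to a range from 0.899-fold to 1.04-fold. TF had 0.04 (95% interval -0.06 to 0.15), RBP4 had -0.03 (95% interval -0.13 to 0.08), AHSG had -0.04 (95% interval -0.14 to 0.06) and HP had -0.08 (95% interval -0.19 to 0.04). AFP, at -0.15 (95% interval -0.27 to -0.02, FDR 0.141), and SERPINA1, at 0.12 (95% interval 0.02 to 0.23, FDR 0.15), had unadjusted P values of 0.0265 and 0.0292 that did not survive adjustment. AFP passed with the block when number 1 was left out (log2FC -0.23, FDR 0.0265). GC had 0.77 (FDR 0.296).

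**Figure D3:**
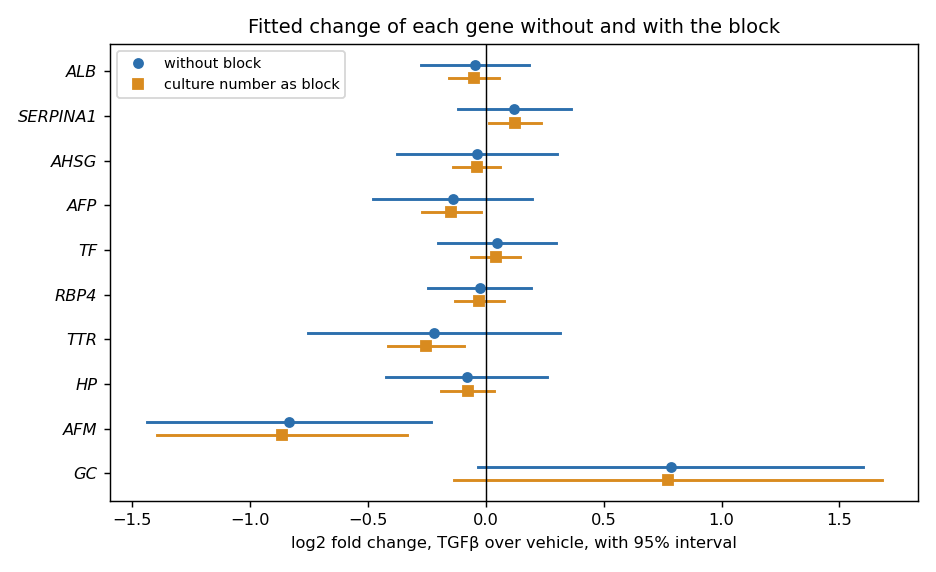
Fitted log2FC of each gene, TGFβ over vehicle, with its 95% interval, without a block (blue) and with the culture number as block (orange). The block narrows every interval but that of GC. With it the intervals of AFP, TTR and AFM lie below 0 and that of SERPINA1 above 0, those of the other 6 genes hold 0, and without it only that of AFM excludes 0.

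Together the 10 genes took 3.16%, 2.78% and 3.08% of all reads on genes in the vehicle cultures and 3.09%, 2.57% and 3.03% in the TGFβ cultures. ALB alone made up between 51.2% and 55.5% of these reads. The mean share was 3.01% ± 0.204 with vehicle and 2.90% ± 0.282 with TGFβ (SD, n = 3 each), a difference within the spread (two-sided exact permutation test, P = 0.6). The exact sign-flip test within numbers gave P = 0.25, the smallest value it can give. The share was lower with TGFβ in 3 of 3 numbers, whereas the TMM-normalized sum was higher in 2 of 3, so the direction within numbers depended on the scaling.

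Among genes outside the lists with a mean of at least 100 CPM, those whose centered log2 CPM over the 6 cultures lay closest to ALB were PCYOX1, ACLY and CAT, at Euclidean distances of 0.0648, 0.0707 and 0.0784. The profile of ALB itself had a spread of 0.269 on this measure. Among the closest to AFP, which had a spread of 0.546, were RBBP9 at 0.155 and PEG10 at 0.166. These are descriptions over 2205 genes in libraries that share lanes and culture numbers.

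Other plasma proteins of the liver formed a list of 33 genes. Of 30 tested genes, 0 were higher and 0 were lower at an FDR under 0.05, with a median log2FC of -0.04 and, at an unadjusted P under 0.05, 2 higher and 3 lower (8.69% and 4.97% of all tested genes). DESeq2 called 1 higher and 2 lower, beside 5.02% and 2.02% of the genes it gave an FDR. CRP and APCS had 0 reads in all cultures. With the block 4 were higher and 6 were lower, beside 8.08% and 3.75% of all tested genes. Among these, chosen after their values were seen, IGFALS, which holds insulin-like growth factors in plasma, had 4.24, 2.28 and 3.04 CPM with vehicle and 7.18, 4.52 and 5.41 CPM with TGFβ (log2FC 0.86 with the block, FDR 0.000543). SEPP1, the selenium carrier, had 747, 867 and 819 CPM with vehicle and 697, 649 and 611 CPM with TGFβ (log2FC -0.31 with the block, FDR 0.0104).

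Genes that take up, store or pass on what the carriers bring were followed in a list of 27, of which 25 were tested. In the fit without the block, 2 rose and 0 fell, beside 3.11% and 1.01% of all tested genes. Their median log2FC was 0.03. HMOX1, the enzyme that breaks down heme, had 48.9, 33.0 and 55.5 CPM with vehicle and 88.5, 68.8 and 98.4 CPM with TGFβ, and rose by 0.90 on the log2 scale (SE 0.18, FDR 0.0237). SLC11A2, an iron importer, had 74.5, 74.4 and 76.4 CPM with vehicle and 95.7, 88.2 and 96.4 CPM with TGFβ, and rose by 0.32 (SE 0.07, FDR 0.0322). The groups did not overlap in either gene, and such a separation upward was seen in 10.4% of all tested genes. Single cultures were left out in the fit without the block only. There the HMOX1 call was lost without vehicle culture 1 (log2FC 0.94, FDR 0.0599), TGFβ culture 1 (0.86, FDR 0.128) or TGFβ culture 3 (0.77, FDR 0.0779). That of SLC11A2 was lost whichever single culture was left out (log2FC 0.28 to 0.34, FDR 0.0592 to 0.138), and also with total-count scaling (log2FC 0.27, FDR 0.0565) and upper quartile scaling (log2FC 0.28, FDR 0.0623). With the block 4 genes rose and 0 fell, beside 8.08% and 3.75% of all tested genes. Those that rose were HMOX1 (log2FC 0.91, FDR 1.99e-06), SLC11A2 (log2FC 0.31, FDR 0.00165), the lipoprotein receptor SCARB1 and the transferrin receptor TFRC. TFRC had 546, 563 and 526 CPM with vehicle and 655, 608 and 611 CPM with TGFβ (log2FC 0.20, FDR 0.216 without the block and 0.0238 with it). Of the 6 tested markers of other cells, 2 (PDGFRB and COL1A1) were higher with the block and 0 were lower, beside the same shares of all tested genes.

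Transcription factors with known roles at liver secretory genes formed a list of 27. In the fit without the block 3 of 27 tested genes fell and 0 rose, beside 1.01% and 3.11% of all tested genes. Their median log2FC was -0.19, beside -0.01 for all tested genes, and 18 of 27 values were negative. Whether this list differed from the carriers was not tested. HLF and TEF belong with DBP to the PAR bZIP factors, and DBP is named for its site in the albumin promoter. HLF had 344, 353 and 360 CPM with vehicle and 240, 214 and 211 CPM with TGFβ, a log2FC of -0.67 (SE 0.07, FDR 0.000888). TEF had 12.4, 11.3 and 11.6 CPM with vehicle and 8.41, 6.95 and 7.35 CPM with TGFβ, a log2FC of -0.63 (SE 0.11, FDR 0.0121). For both, and for the orphan receptor NR2F1 (log2FC -0.40, SE 0.08, FDR 0.0230), all TGFβ cultures were below all vehicle cultures. This held for 10 of the 27 factors and for 8.23% of all tested genes.

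DBP itself had a log2FC of -0.32 (SE 0.17, FDR 0.471). HNF4A, a central hepatocyte factor, was at 0.02 (SE 0.08, FDR 0.960). With the block 11 factors were lower and 3 were higher, beside 3.75% and 8.08% of all tested genes. The higher ones were CEBPA, RXRA and FOXA1. The call of HLF held whichever single culture was left out (FDR 0.0011 to 0.00934). That of TEF was lost without vehicle culture 3 (log2FC -0.65, FDR 0.0573) or TGFβ culture 2 (log2FC -0.59, FDR 0.0562), and that of NR2F1 whichever single culture was left out (log2FC -0.43 to -0.37, FDR 0.0505 to 0.114).

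**Figure D4:**
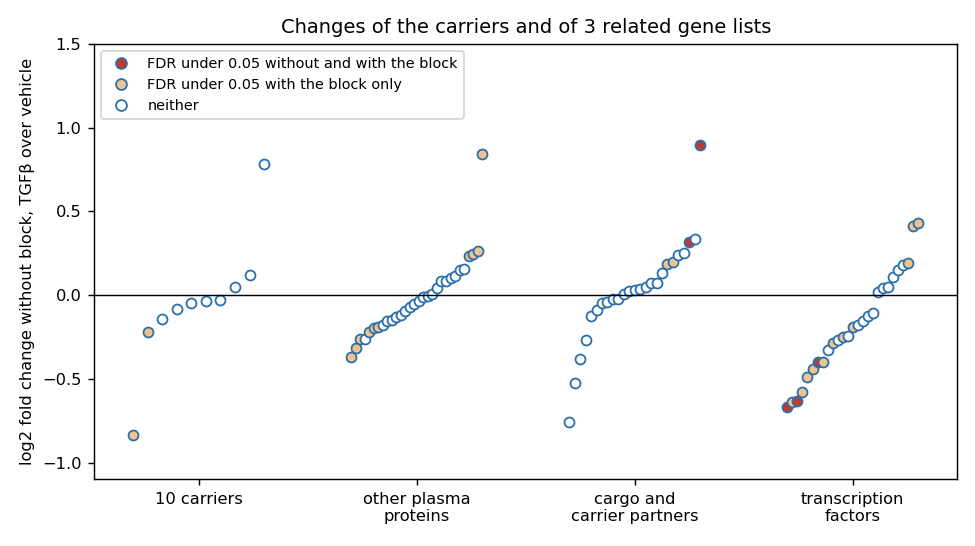
Fitted log2FC without the block for each tested gene of the 10 carriers and of 3 lists, in ascending order within a list. Filled red points had an FDR under 0.05 with and without the block and pale points only with it; none of the carriers is red, while HLF, TEF and NR2F1 are the red points among the transcription factors.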

How the data were processed

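RNA from 3 vehicle and 3 TGFβ cultures of HepG2 was sequenced as mRNA libraries. The authors aligned paired reads to hg19 (TopHat2 2.0.6 in the submitters' processing notes) and deposited raw counts per gene from MAPRseq, with RPKM by coding length beside them. The deposited RPKM values served only to compare levels between genes. Groups and culture numbers came from the sample labels, which do not say how the cultures of a group were separated. The study's methods call the sequenced replicates biological and speak of 3 independent ones. P values measure only the spread between these cultures.

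Counts were normalized with TMM, filtered with filterByExpr and tested with edgeR 4.0.16 (limma 3.58.1, R 4.3.3), by the robust quasi-likelihood F test across all genes, with Benjamini-Hochberg adjustment. Standard errors and 95% intervals are those implied by the F statistic. CPM values are TMM-normalized. The steps were tested on simulated counts. These were drawn without an effect of culture number, so they do not check the block in paired cultures. No pair of cultures within a group agreed within sampling noise (21.6 to 46.7 as the chi-square statistic over degrees of freedom). Deviations from group means correlated at 0.349, 0.211 and 0.301 for cultures with the same number and at most 0.00927 for others, so the numbers pair the cultures. The study's methods name no block, so the fit without it is given first and the fit with it beside it.

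The carriers and the lists were chosen with earlier results of these data known. Named genes are the 10 carriers, HPR, the treatment genes, list genes at an FDR under 0.05 and the 3 closest profiles to ALB and AFP among genes outside the lists. TFP1 and the other overlapping genes, the genes named as not passing this threshold and those named from the block were chosen after their values were seen. Alternatives were other scalings, filters and tests (DESeq2 1.42.0, limma-voom), the replicate block and leaving out each culture. PECAM1 was not analysed here, and 3 genes that this rule or the lists would name are not reported here.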

Additional observations from a re-analysis of the deposited data

How the results depend on the processing

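For the 10 carriers, 165 of 190 values under an alternative kept their direction and their side of the FDR threshold, 10 passed it and 15 changed sign. Every value that passed it came from a fit with the replicate block, and the block changed no other call of a carrier. The block with other scalings or without a culture number was chosen after the data were seen. Under total-count scaling with the block, AFM and TTR had FDR values of 0.0298 and 0.0312. The sign changes came from single cultures left out, where log2 fold changes ranged from -0.13 to 0.0202 for ALB, from -0.29 to 0.0035 for AFP, from -0.40 to 0.0228 for TTR, from -0.0368 to 0.14 for TF, from -0.10 to 0.0437 for RBP4, from -0.21 to 0.11 for AHSG and from -0.23 to 0.0368 for HP, and from the block without number 2, which gave RBP4 0.0038. SERPINA1 ranged from 0.0202 to 0.17, AFM from -1.12 to -0.63 and GC from 0.66 to 0.89, with no change of sign. The cause was not tested. The difference in the summed share ranged from -0.225 to 0.052 percentage points (above 0 without TGFβ culture 2) and that in the log2 AFP to ALB ratio from -0.221 to 0.0387 (above 0 without vehicle culture 3).

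With the replicate block, 2 carriers were lower, 4 other plasma proteins were higher and 6 lower, and 4 uptake and storage genes were higher. Of the transcription factors, 3 were higher and 11 lower. Of all tested genes, 1837 were higher and 853 lower (8.08% and 3.75%). DESeq2 gave 1 and 2 for the other plasma proteins, 5 lower factors and 406 lower genes in all. Total-count scaling, upper quartile scaling and no filter each gave 2 lower plasma proteins and 1 higher uptake gene, and no filter gave 366 lower genes in all. HMOX1 had an FDR of 0.352 without the filter. Leaving out single cultures gave 0 to 1 higher and 0 to 1 lower plasma proteins, 0 to 1 higher uptake genes, 0 to 1 higher and 1 to 3 lower factors, and 394 to 778 higher and 91 to 220 lower genes in all. GC had too few reads for the filter of 10 reads in every culture, and DESeq2 gave no FDR for it. Depth limits what can be said of GC and AFM.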
